A study of Nothobranchius furzeri with 3 samples.

Results

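The striated muscle miRNAs mir-1, mir-133 and mir-499 were followed in skin of the turquoise killifish, Nothobranchius furzeri, a fish of seasonal pools that ages within months. They were taken by name, as nfu-mir-1, nfu-mir-133 and nfu-mir-499, from the 324 features of a table of small RNA read counts, and all 3 of these were found. Each of the 3 carries a family name without a 5p or 3p arm, so a value stands for all reads that were counted under that name. All samples were male skin, taken from MZM-04/10p fish aged 39 weeks, and formed 1 group of 3 libraries, called libraries 1, 2 and 3. The series has no second age, tissue or treatment, so levels, ratios and the spread between libraries are described and no conditions are compared. The labels do not say that each library came from a separate fish, so this spread may be partly technical.

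Members of the miR-1 and miR-133 families are made from shared primary transcripts in vertebrates. Their genes are switched on in skeletal and cardiac muscle by factors such as MEF2, SRF and MyoD. In mouse muscle cells miR-1 favours differentiation, with HDAC4 among its known targets, while miR-133 restrains SRF. miR-499 lies in an intron of the myosin heavy chain gene Myh7b and is known from heart and slow muscle fibres, where Sox6 is a known target in mouse. In zebrafish, miR-1 and miR-133 are known to shape actin organisation in muscle, and miR-133 is also known from the regenerating fin, a tissue covered by skin.

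Library totals were 5021238, 8545292 and 9590428 counts. The defining marker of epidermis was present, since the stratified epithelium miRNA mir-205 held 6.63% ± 1.01 of counts (SD, n = 3), and mir-8, the family name that covers the vertebrate miR-200 miRNAs, had 3197, 3905 and 5075 counts per 1000000 of the library total (CPM). The separate feature named mir-200 had 0 counts throughout, an upper limit of 0.597, 0.351 and 0.313 CPM for reads under that name, which does not show that miR-200 was missing. Among the 158 features whose mean count reached 10, edgeR estimated a common biological coefficient of variation of 0.452. A chi-square test with Benjamini-Hochberg adjustment called 130 of these features, 82.3%, as differing between libraries beyond counting error. All 3 muscle features were among them, which at this background says nothing particular about them.

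mir-133 made up nearly all of the summed counts of the 3 miRNAs. Which cells of the skin these reads came from was not tested. mir-133 had 79744, 54996 and 207936 counts in libraries 1, 2 and 3, or 15881, 6436 and 21682 CPM. Library 2 was the low one, and libraries 1 and 3 were closer to each other than either was to library 2. The share of all counts was 1.59% in library 1 (95% exact binomial interval 1.58 to 1.60), 0.644% in library 2 (0.638 to 0.649) and 2.17% in library 3 (2.16 to 2.18). These intervals did not overlap, and they cover counting error only. The mean was 1.47% ± 0.770 (SD, n = 3).

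mir-1 had far lower counts. It had 1766, 1538 and 4561 counts, or 352, 180 and 476 CPM in libraries 1, 2 and 3. Its intervals, 335 to 368, 171 to 189 and 462 to 490 CPM, were also apart, with library 2 again lowest and library 3 highest. The mean was 0.0336% ± 0.0148 of counts (SD, n = 3).

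mir-499, the intronic miRNA of a myosin gene, had the fewest counts of the 3. It had 588, 476 and 1745 counts, or 117, 55.7 and 182 CPM in libraries 1, 2 and 3. The counting intervals were 108 to 127, 50.8 to 60.9 and 174 to 191 CPM, and the libraries stood in the same order as for mir-133 and mir-1. The mean was 0.0118% ± 0.00631 of counts (SD, n = 3). In bulk tissue such as this, fewer muscle cells and less of a miRNA per cell cannot be told apart.

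**Figure D1:**
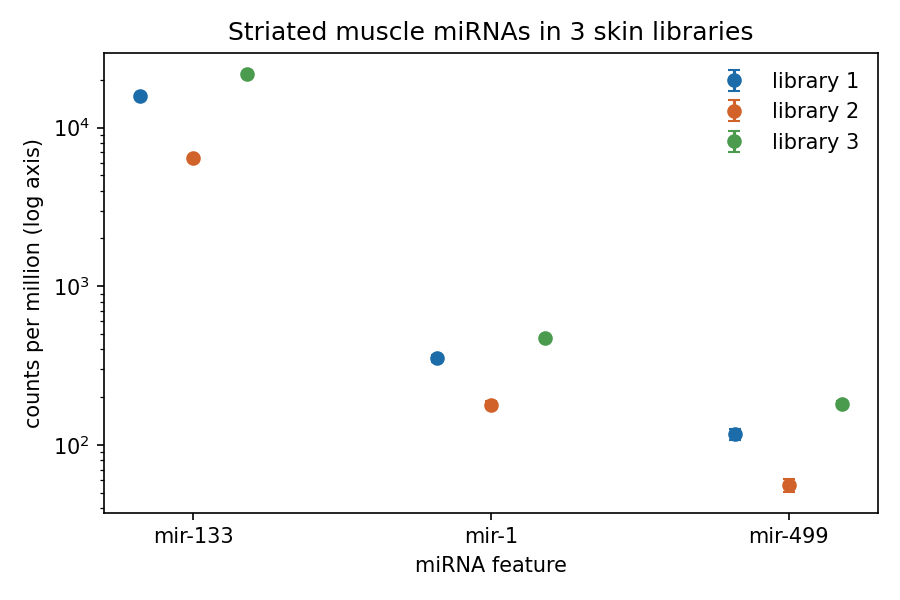
CPM (log axis) of mir-133, mir-1 and mir-499 in each of the 3 skin libraries, with 95% exact binomial intervals as bars, which the markers mostly cover. Library 2 was lowest and library 3 highest for each miRNA, and mir-133 lay between 6436 and 21682 CPM, above mir-1 (180 to 476) and mir-499 (55.7 to 182).

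In the order of abundance the 3 miRNAs were far apart. mir-133 ranked 11, 17 and 11 of 324 in libraries 1, 2 and 3, mir-1 ranked 56, 69 and 51, and mir-499 ranked 72, 87 and 65. Each held its lowest rank in library 2. By mean CPM they ranked 14, 58 and 77.

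Their neighbours in that order were close to them in mean CPM by choice, so their levels are only described. mir-133 stood between mir-199, a miRNA of mesenchyme, at 1.49% ± 0.643, and mir-30, a widely expressed family, at 1.12% ± 0.118, and it exceeded each of them in 2 of 3 libraries. mir-1, at 336 ± 148 CPM, stood between mir-103, a widely expressed miRNA, at 349 ± 26.4 CPM and the erythroid mir-144 at 327 ± 147 CPM. mir-1 exceeded mir-103 in 2 of 3 libraries and mir-144 in 1. mir-499, at 118 ± 63.1 CPM, stood between the feature named mir-883 at 120.3 ± 14.4 CPM and mir-202, known from fish gonads, at 114 ± 181 CPM. mir-499 exceeded each of these in 2 of 3 libraries. Levels of different miRNAs also carry the capture bias of small RNA libraries.

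**Figure D2:**
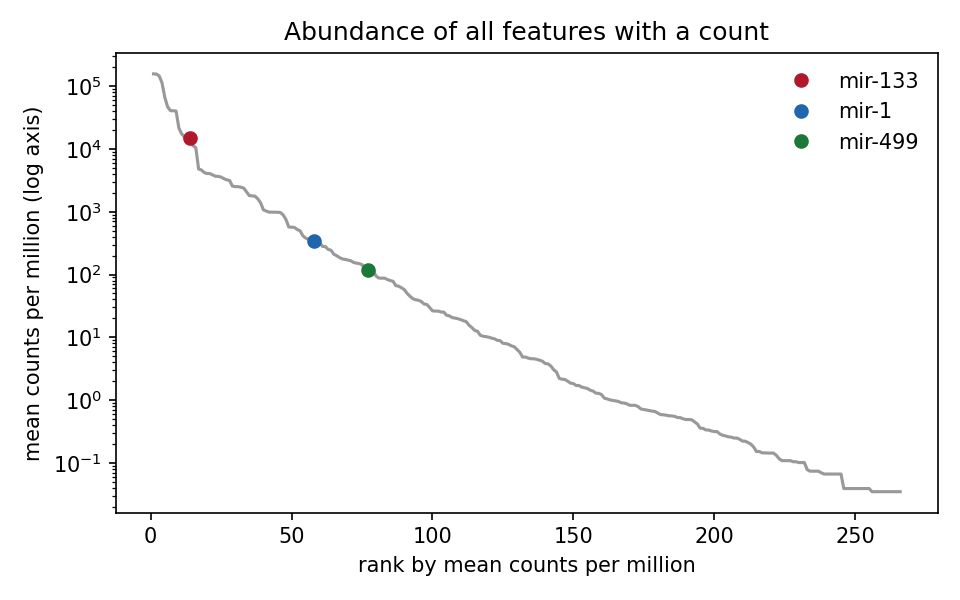
Mean CPM (log axis) of every feature with a count against its rank, as a grey line, with the 3 muscle miRNAs as points. mir-133 sits at rank 14, on the steep upper part of the curve, and mir-1 and mir-499 sit at ranks 58 and 77.

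Within the sum of the 3 miRNAs, mir-133 so outnumbered the others that its own part could vary little between libraries. mir-133 made up 97.1%, 96.5% and 97.1% of the summed counts of the 3 miRNAs in libraries 1, 2 and 3. mir-1 made up 2.15% (2.05 to 2.25), 2.70% (2.57 to 2.83) and 2.13% (2.07 to 2.19). mir-499 made up 0.716% (0.660 to 0.776), 0.835% (0.762 to 0.913) and 0.814% (0.777 to 0.853). The parts of mir-1 and mir-133 in library 2 lay outside the counting intervals of both other libraries. The part of mir-499 in library 2 lay outside the interval of library 1 but inside that of library 3, and its own interval overlapped both.

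The ratio of mir-133 to mir-1 was 45.2 in library 1 (95% exact conditional interval 43.1 to 47.4), 35.8 in library 2 (34.0 to 37.6) and 45.6 in library 3 (44.3 to 47.0). Both are family names, so whether these reads came from shared primary transcripts was not tested. Libraries 1 and 3 could not be separated, with a fold between their ratios of 1.01 (95% counting interval 0.955 to 1.07, Woolf). Library 2 was lower by more than counting error, since the ratio of library 3 was 1.27-fold that of library 2 (1.20 to 1.35). The ratio does not depend on depth or scaling, but it carries the capture bias of small RNA libraries, so its size describes reads. The mean log2 ratio was 5.39 ± 0.198, against an SD of 0.0319 from counting alone.

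The ratio of mir-133 to mir-499 was 136 (125.0 to 147), 116 (106 to 127) and 119 (114 to 125) in libraries 1, 2 and 3. Here libraries 2 and 3 could not be separated (fold 1.03, 0.932 to 1.14), and library 1 was the high one. Its ratio was 1.17-fold that of library 2 (1.04 to 1.33). The mean log2 ratio was 6.94 ± 0.123, against 0.0553 from counting.

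The ratio of mir-1 to mir-499 was 3.00 (2.73 to 3.30), 3.23 (2.91 to 3.59) and 2.61 (2.47 to 2.76). Libraries 1 and 2 could not be separated (fold 0.930, 0.809 to 1.07), and library 3 was lower than each of them. The mean log2 ratio was 1.55 ± 0.155, against 0.0635 from counting. Each of the 3 ratios thus had a different library standing apart.

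**Figure D3:**
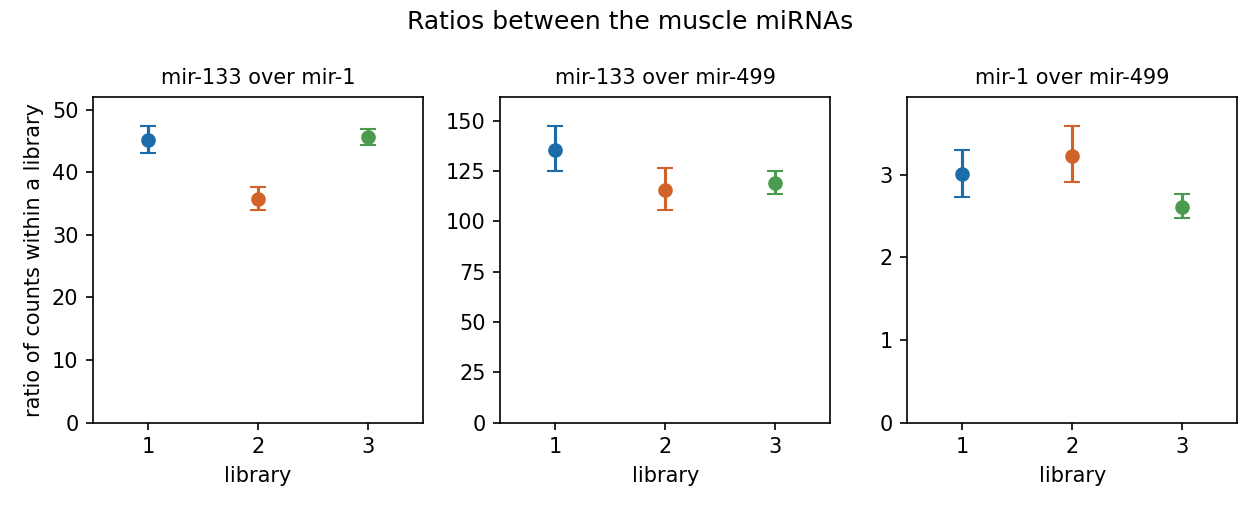
Ratio of counts within each library for mir-133 over mir-1, mir-133 over mir-499 and mir-1 over mir-499, 1 panel each with an axis from 0, and 95% exact conditional intervals as bars. The ratios vary 1.27-fold, 1.17-fold and 1.24-fold over the libraries, with library 2 low for mir-133 over mir-1.

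These ratios were steady in comparison with those of other features. The highest library exceeded the lowest 1.27-fold for mir-133 over mir-1, 1.17-fold for mir-133 over mir-499 and 1.24-fold for mir-1 over mir-499. Over all 6555 pairs of the 115 features whose mean count reached 100, the median was 2.60-fold. A smaller range than that of the muscle pairs was seen in 5.13% of pairs for mir-133 over mir-1, 2.38% for mir-133 over mir-499 and 3.95% for mir-1 over mir-499. Pairs share features and libraries, so these shares describe the table and are no test. They depend on having all 3 libraries. Without library 1, 2 or 3 they were 21.3%, 0.961% and 21.2% for mir-133 over mir-1. They were 2.56%, 14.6% and 14.9% for mir-133 over mir-499, and 18.7%, 15.6% and 7.35% for mir-1 over mir-499.

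**Figure D4:**
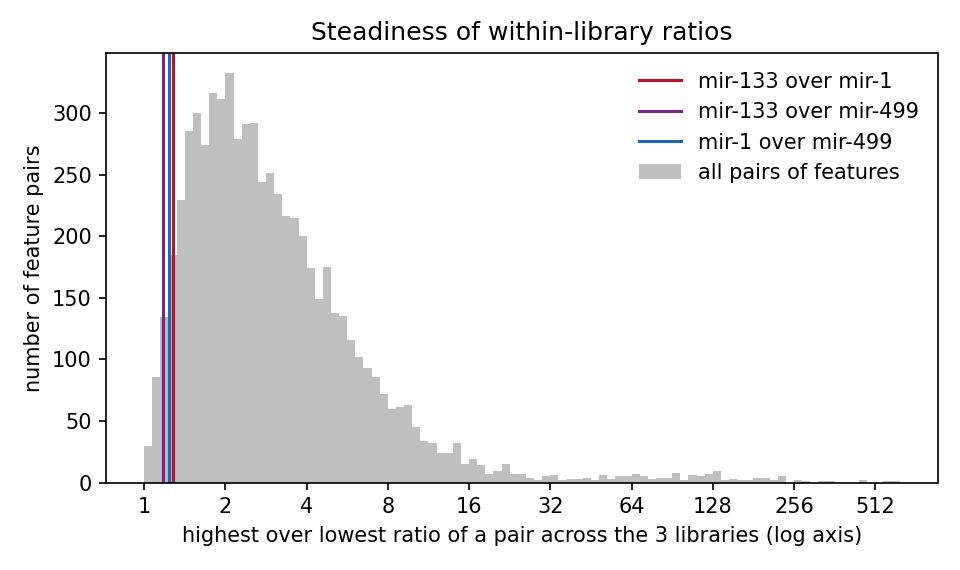
Number of feature pairs by the fold between their highest and lowest within-library ratio over the 3 libraries (log axis), for all 6555 pairs of features whose mean count reached 100. Vertical lines mark the 3 muscle pairs at 1.17-fold, 1.24-fold and 1.27-fold, near the left edge of the distribution, whose median is 2.60-fold.

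While the ratios were steady, the level of all 3 miRNAs moved together over the libraries. After TMM scaling (trimmed mean of M-values, edgeR), mir-133 had 17843, 5999 and 20702 CPM in libraries 1, 2 and 3, mir-1 had 395, 168 and 454, and mir-499 had 132, 51.9 and 174. Library 2 was lowest for each of them, and library 3 was above library 1 by a small margin. Library 3 exceeded library 2 3.45-fold for mir-133 (95% counting interval 3.42 to 3.48), 2.71-fold for mir-1 (2.55 to 2.87) and 3.35-fold for mir-499 (3.02 to 3.71).

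Library 1 exceeded library 2 2.97-fold for mir-133 (2.94 to 3.01), 2.36-fold for mir-1 (2.20 to 2.52) and 2.53-fold for mir-499 (2.24 to 2.87). Library 3 exceeded library 1 only 1.16-fold for mir-133 (1.15 to 1.17), 1.15-fold for mir-1 (1.09 to 1.21) and 1.32-fold for mir-499 (1.20 to 1.45). The contrast between libraries thus lay mainly between library 2 and the other two.

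Of these 115 features, 14.8% had at least 2 times as much in library 3 as in library 2, as did all 3 muscle miRNAs. Counting each other, 4, 5 and 7 of the 114 other features had a larger excess of library 3 over library 2 than mir-133, mir-499 and mir-1. The median log2 difference of library 3 over library 2 was 0.09 over the 115 features, against 1.79 for mir-133, 1.74 for mir-499 and 1.44 for mir-1. Being lowest in library 2 was itself common, at 43.5% of the 115 features, or 27.8% to 43.5% over the scalings used. The full order of library 3 over library 1 over library 2, which the muscle miRNAs shared, was that of 23.5% of them, or 14.8% to 23.5% over the scalings used, and the 3 miRNAs kept it under each of these scalings.

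The spread of the muscle miRNAs over libraries was above the middle of the table but not extreme. The fold between the highest and the lowest library ranked 19 of 115 for mir-133, 20 for mir-499 and 28 for mir-1, against a median of 1.86-fold. Their coefficients of variation were 52.5%, 51.9% and 44.6% after TMM scaling, against a median of 31.2% over the 115 features. Counting error alone would give 0.344% for mir-133, 3.82% for mir-499 and 2.19% for mir-1, so depth did not limit these values.

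**Figure D5:**
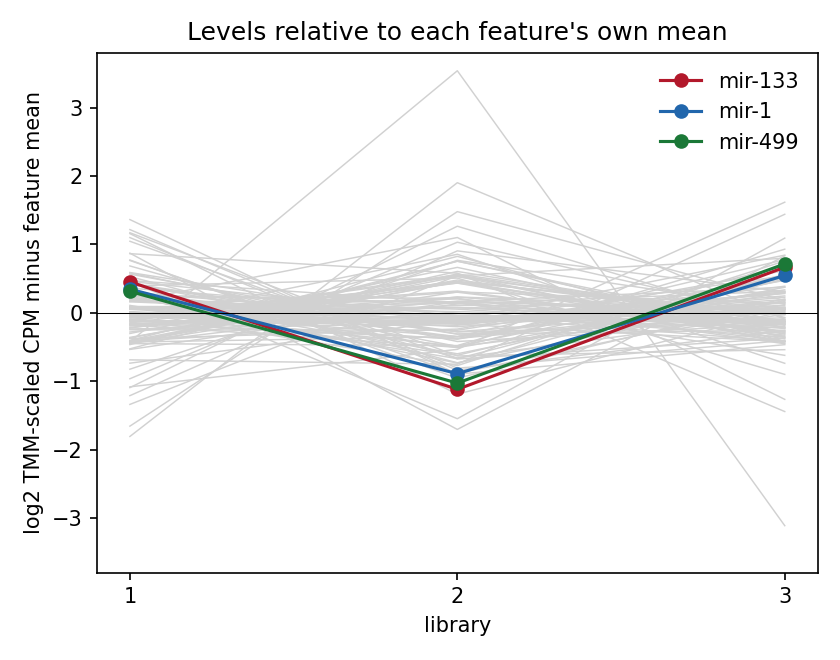
Level in each library relative to the feature's own mean (log2 of TMM-scaled CPM, centred), for the 115 features whose mean count reached 100, in grey, and the 3 muscle miRNAs in colour, with lines that join a feature's values and imply no order of libraries. The coloured lines dip together in library 2 and run close to each other, with a log2 difference of library 3 over library 2 of 1.79 for mir-133, 1.74 for mir-499 and 1.44 for mir-1.

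The profile over the 3 libraries set the muscle miRNAs beside each other. Likeness was measured as the Euclidean distance between centred log2 profiles, which does not depend on scaling, over 3 libraries and among 114 other features. For a pair of features this distance is a fixed multiple of the SD of their log2 ratio. It therefore restates the steady ratios above and is no separate support for them. The feature nearest to mir-133 was mir-499, at a distance of 0.173, followed by mir-1 at 0.281, against a median of 1.42. For mir-499 the nearest were likewise mir-133 (0.173) and mir-1 (0.220). For mir-1 the feature named mir-BART15, a name known from a herpesvirus, came first at 0.194, ahead of mir-499 (0.220) and mir-133 (0.281).

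Outside the muscle miRNAs the nearest features were rare. mir-BART15 had 206, 215 and 553 counts in libraries 1, 2 and 3, and lay at 0.472 from mir-133 and 0.373 from mir-499. The feature named mir-477 had 153, 182 and 576 counts and lay at 0.567 from mir-133 and 0.396 from mir-499. mir-7641, with 102, 122 and 314 counts, lay at 0.576 from mir-133, 0.440 from mir-499 and 0.324 from mir-1. The last of the 5 nearest to mir-1 was mir-727, at 0.358, with 329, 381 and 820 counts. With 3 libraries this order is a description, and the origin of the reads under these names was not tested.

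Of the other miRNAs listed for striated muscle, mir-206, mir-208 and mir-486 had no feature under these names. Among 11 miRNA numbers with known roles in muscle differentiation, 8 were found with mean counts above 100, while mir-222, mir-378 and mir-503 likewise had no feature. All 8 were called as differing between libraries, beside 82.3% of the 158 features tested. Of the 115 features whose mean count reached 100, tested alone, 112 were called, so this says nothing particular about the 8. After TMM scaling the order of libraries seen for the muscle miRNAs held for 2 of the 8, mir-26 and mir-221, beside 23.5% of the 115 features. By library total mir-26 was instead lowest in library 1, at 143038, 144629 and 180814 CPM in libraries 1, 2 and 3. The median log2 difference of library 3 over library 2 was 0.15 for these 8, close to the 0.09 of all 115 features and far below those of the muscle miRNAs.

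Among them, mir-181, known to rise when mouse myoblasts differentiate, had 133148, 84854 and 121670 CPM in libraries 1, 2 and 3. It was lowest in library 2, as the muscle miRNAs were, but library 1 exceeded library 2 only 1.89-fold after scaling. mir-27, which restrains Pax3 in mouse muscle progenitors, had 41366, 41882 and 38825 CPM and varied 1.25-fold after scaling. mir-29, which favours mouse myogenic differentiation and targets collagen transcripts, had 672, 1360 and 1181 CPM and was highest in library 2. These miRNAs are expressed in many tissues.

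Features of other cell types in the skin moved with the libraries in different ways. The smooth muscle miRNAs mir-143 and mir-145, which are co-transcribed, were both lowest in library 2, but highest in library 1. Summed, the striated muscle miRNAs took 1.64%, 0.667% and 2.23% of counts in libraries 1, 2 and 3, against 0.899%, 0.440% and 0.545% for smooth muscle. Their ratio was 1.82, 1.52 and 4.10, a mean log2 ratio of 1.17 ± 0.764. The log2 ratio was positive in 3 of 3 libraries. The two-sided exact permutation test over sign flips gave p = 0.25. That is the lowest value that n = 3 permits, so the test could not decide and no conclusion is drawn from it. The order was fixed by mir-133, since mir-1 and mir-499 together were below mir-145 alone, at a log2 ratio of -2.14.

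Against mesenchyme (mir-199, mir-214 and mir-140) the muscle miRNAs differed most in library 2. The mesenchyme list took 1.08%, 2.33% and 1.40% of counts and was highest in library 2, nearly all of it as mir-199 (1.49% of a mean of 1.60%), while mir-140, a cartilage miRNA, had 623, 578 and 514 CPM and was highest in library 1. The ratio of muscle to mesenchyme miRNAs was 1.51, 0.286 and 1.60, so its mean log2 of -0.18 ± 1.41 rests on library 2 and was 0.64 without it.

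The erythroid miRNAs mir-451 and mir-144 had the reverse order of the muscle miRNAs, highest in library 2 and lowest in library 3. After TMM scaling the leukocyte mir-142 and mir-223 and the mesenchyme mir-214 had this order too, so it was not particular to erythroid miRNAs. The ratio of muscle to erythroid miRNAs was 14.4, 2.96 and 43.9 in libraries 1, 2 and 3. mir-451 had 780, 1798 and 340.1 CPM and mir-144 had 353, 459.6 and 169 CPM. Of the 4 leukocyte miRNAs, mir-142 and mir-223 were also highest in library 2, while mir-146 was lowest there and mir-155 was highest in library 3. Summed, the 4 took a nearly even 0.475%, 0.501% and 0.458% of counts in libraries 1, 2 and 3. The ratio of muscle to leukocyte miRNAs was 3.44, 1.33 and 4.88.

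The epidermal list (mir-205, mir-203, mir-8, mir-184 and mir-200) was less uneven, at 6.76%, 7.30% and 9.08% of counts. The muscle miRNAs had 0.242, 0.0913 and 0.246 times its counts in libraries 1, 2 and 3. Within it mir-184, known from corneal epithelium, was lowest in library 2, at 4489, 1633 and 3513 CPM. After TMM scaling mir-205 and mir-203 were lowest in library 2 and had the full order of the muscle miRNAs, as did 23.5% of the 115 features. On that scale library 3 exceeded library 2 1.22-fold for mir-205 and 1.89-fold for mir-203, while mir-8 was lowest in library 1. By library total mir-205 (57164, 64698 and 77087 CPM) and mir-203 (2713, 2804 and 5166 CPM) were lowest in library 1. Their order thus depends on the scaling. The endothelial mir-126 had 4873, 4146 and 3123 CPM, and the muscle miRNAs had 3.35, 1.61 and 7.15 times its counts. The 5 neural miRNAs (mir-124, mir-9, mir-128, mir-138 and mir-218) took 0.140%, 0.243% and 0.272% of counts, and the muscle miRNAs had 11.7, 2.74 and 8.22 times their counts. Most of the neural counts were mir-128 (0.177% of a mean of 0.218%), at 1027, 2010 and 2270 CPM. By library total mir-124 (3.78, 5.38 and 2.29 CPM) and mir-9 (41.0, 70.6 and 60.7 CPM) were instead highest in library 2. On that scale mir-138 and mir-218 were highest in library 3. The part of blood cells, mesenchyme and smooth muscle in the low level of the muscle miRNAs in library 2 was not tested.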

How the data were processed

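Small RNA libraries were made from total RNA with the Illumina TruSeq kit, per the labels' protocols. The authors deposited raw counts, whole numbers per miRNA name, with 1 column per library. Tools listed in the submitters' processing notes are BWA 0.7.12-r1039, SAMtools 1.3.1-9, Trimmomatic 0.36 and bcl2fastq 1.8.4, with no role stated. The sources used here do not give the genome build, annotation or treatment of reads with several matches, so reads of related miRNAs may be shared or dropped, and neither coordinates nor sequences are given. Intervals cover the counting error of reads only. No molecular identifiers are mentioned, so copies of a molecule may be counted as separate reads and the intervals may be too narrow.

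From these counts, shares and CPM used the library total. TMM factors from features whose mean count reached 10 were 0.890, 1.07 and 1.05 (edgeR 4.0.16, R 4.3.3). DESeq2 1.42.0 gave alternative size factors and dispersions. Shares and ratios used scipy 1.17.1 and pandas 2.3.3 in Python 3.11.15. The chi-square test, called at an adjusted p under 0.05, compares libraries, not conditions, and it and the dispersion estimate were tested on simulated data. Libraries were numbered in accession order. The miRNAs, lists and tests were chosen with earlier results of these data known. Named features were the 3 muscle miRNAs, listed markers, the 5 nearest profiles and the neighbours by mean CPM. Alternatives were other scalings, denominators, filters, pseudocounts and each library left out.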

Additional observations from a re-analysis of the deposited data

How the results depend on the processing

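No paired analysis was possible because the series holds 1 group. Of the alternatives, that of summing mir-1 with mir-206 and mir-499 with mir-208 was not run, since no feature was named mir-206 or mir-208. Shares moved by less than 1 SD under each denominator, and within-library ratios under the pseudocount. Leaving a library out cannot move a mean of 3 values by 1 SD, so those values only give the range. The share of mir-133 was 1.12% to 1.88% with each library left out, of mir-1 0.0266% to 0.0414%, and of mir-499 0.00864% to 0.0150%. Every difference between libraries for the 3 miRNAs kept its direction under DESeq2 size factors, library totals and TMM factors without a filter. The log2 difference of library 3 over library 2 was 1.64 to 1.79 for mir-133, 1.29 to 1.44 for mir-1 and 1.59 to 1.74 for mir-499. With library totals the median of the 115 features moved to 0.32 for library 3 over 1 and to -0.21 for library 1 over 2. Relative to the median feature, which no scaling changes, library 3 over 2 was 1.69 for mir-133, 1.34 for mir-1 and 1.65 for mir-499. With each list without its most abundant feature, the log2 ratio of muscle miRNAs reversed against smooth muscle (-2.14) and leukocytes (-2.35) and moved against epidermis (-4.67), erythroid (0.47) and neural miRNAs (0.022), mir-133 being the feature left out of the muscle list. Against mesenchyme it was -0.60 to 0.64 with each library left out, reversed without library 2. The coefficient of variation was 0.370 to 0.481 with each library left out and 0.402 as DESeq2's median. Features differing between libraries numbered 108 to 143, out of differing numbers tested, so these counts cannot be compared as shares. Among the 115 features whose mean count reached 100 they numbered 112. The shares of steadier pairs with each library left out were chosen after seeing the data.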
